A study of Mus musculus with 20 samples.

Results

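Thrombomodulin and the genes that act around it in blood coagulation were examined in 7 clonal lines of mouse Swiss 3T3 fibroblasts, 4 able to become fat cells and 3 not. The genes were all array probe sets that the platform annotation assigns to Thbd, Procr, F3, F2r, F2rl1, Tfpi or Pros1. That gave 10 probe sets of 6 genes, out of 45037 probe sets that were not controls and 18193 named genes. F2rl1, which encodes protease-activated receptor 2, had no probe set paired with it and was not analysed here. The group was selected on the difference of Thbd between the 2 classes of lines in these same arrays, so every difference between classes below is a description of these genes, given without a p-value.

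Swiss 3T3 is an immortalized strain of mouse embryo fibroblasts, and each line studied was 1 clone of it. The preadipose lines were Swiss 2, Swiss 8 and Swiss 9, with 3 arrays each, and Swiss 19, with 2 arrays. The non-adipogenic lines were Swiss 3, Swiss 5 and Swiss 22, with 3 arrays each. Every line was grown in DMEM with 10% bovine serum, without induction of differentiation, and was taken while still dividing, so none of the 20 arrays shows a differentiating cell. Whether arrays of a line stem from different cultures is not stated in the labels. A p-value for a difference among lines therefore measures only the spread between arrays, which may be technical.

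Coagulation starts when blood meets tissue factor, the F3 product, a membrane protein that binds factor VII. Tissue factor pathway inhibitor, from Tfpi, blocks that complex. Thrombomodulin, from Thbd, is a membrane protein that binds thrombin and turns it toward activating protein C, a step that the endothelial protein C receptor, from Procr, accelerates, and protein S, from Pros1, is the cofactor of activated protein C. Thrombin also signals to cells by cleaving protease-activated receptor 1, from F2r. Endothelial cells are the best known site of the thrombomodulin and protein C receptor proteins, while fibroblasts outside the vessel wall are a well known source of tissue factor.

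Promoter sequence was at hand for 5 of the 7 genes, as 6 windows, and is shown for the 3 whose windows hold the AP-1 motif TGANTCA, which is its own reverse complement. Each is the 250 bases before the RefSeq start in GRCm38.p6, 5′ to 3′ on the gene's strand, with AP-1 matches in capitals.
F2r, chr13:95618467-95618716, minus strand: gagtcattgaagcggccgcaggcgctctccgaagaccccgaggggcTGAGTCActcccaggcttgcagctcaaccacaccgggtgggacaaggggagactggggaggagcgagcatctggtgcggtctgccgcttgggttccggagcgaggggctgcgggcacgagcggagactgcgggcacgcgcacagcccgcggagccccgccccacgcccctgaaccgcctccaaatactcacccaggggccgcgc
F3, chr3:121723287-121723536, plus strand: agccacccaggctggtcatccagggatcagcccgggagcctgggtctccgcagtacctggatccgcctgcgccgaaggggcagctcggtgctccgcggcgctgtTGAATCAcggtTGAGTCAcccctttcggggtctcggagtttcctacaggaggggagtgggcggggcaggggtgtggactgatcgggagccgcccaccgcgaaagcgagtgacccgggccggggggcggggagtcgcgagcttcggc
Procr, chr2:155750967-155751216, plus strand: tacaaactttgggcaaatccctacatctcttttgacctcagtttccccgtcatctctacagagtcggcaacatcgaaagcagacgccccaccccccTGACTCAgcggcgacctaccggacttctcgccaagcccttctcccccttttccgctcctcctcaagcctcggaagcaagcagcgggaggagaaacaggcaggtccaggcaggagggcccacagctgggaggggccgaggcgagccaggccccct
F3 held 2 matches, starting 146 and 135 bases before the start, and F2r and Procr held 1 each, 204 and 154 bases before it. Both windows of Tfpi and the window of Pros1 held 0. Of 32851 mouse promoter windows of the same length, 6.75% held at least 1 match. The GC box GGGCGG, searched on both strands, was found 3 times in F3, 5 times in Pros1, once in F2r and in each Tfpi window, and 0 times in Procr. It was present in 32.7% of all windows. These are letter matches in a window, with no measurement of binding. Tissue factor and F2r, described below, differed among preadipose lines. So did Pros1 and all 4 Tfpi probe sets, whose windows held 0 AP-1 matches. Procr, with 1 match, did not pass in the quantile-normalized fit and did pass with arrays centred on their medians. A link of the motif with differences among lines was not tested.

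Levels are given as scaled intensity, the array signal after each array was scaled to a trimmed mean of 500. Background is the 95th percentile of the 27 bacterial controls that were not spiked in, as a mean over the arrays of a line. It ran from 76.9 in Swiss 19 to 144 in Swiss 2. Differences are in log2 of the quantile-normalized intensity plus 32, a scale that understates the change of dim genes. Adjusted p-values come from limma with Benjamini-Hochberg adjustment over all 45037 probe sets, with a threshold of 0.05. A fold given beside an F test is that of the highest over the lowest line. The p-value there is of all lines compared and not of that pair. Levels of different probe sets are not compared with each other. Calls among lines depended on how arrays were brought to a common scale. With arrays only centred on their medians, 63.8% of all probe sets passed among the 4 preadipose lines and 53.6% among the 3 non-adipogenic lines, against 15.3% and 11.1% after quantile normalization, and without normalization the shares were 62% and 50.9%.

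The arrays differed in brightness, by 6.11 times in mean intensity between the brightest and the dimmest. By the 9 hybridization-spike probe sets, the arrays fell into 11 dim ones, all of Swiss 2, Swiss 8 and Swiss 9 with 2 of Swiss 3, and 9 bright ones, all of Swiss 19, Swiss 5 and Swiss 22 with the remaining array of Swiss 3. Comparisons among Swiss 2, Swiss 8 and Swiss 9, and between Swiss 5 and Swiss 22, thus lie on 1 side of that split. Correlations were 0.967 to 0.99 between arrays of a line and 0.934 to 0.984 between arrays of different lines. All 10 fibroblast markers were above background in every line. Markers of other cell types passed that measure too, so it does not by itself set cell types apart. Above background in all lines were 6 of 10 macrophage and leukocyte, 4 of 6 measured megakaryocyte and platelet, and 2 of 8 epithelial markers. For mesothelial and measured hepatocyte markers the counts were 0 of 7 and 0 of 4. Of 15 endothelial markers, Pecam1, Tie1 and Erg were above background in no line, Egfl7 was above it in all lines, and the others were above it in some. The summed level of the endothelial markers was 1686 to 1864 in preadipose lines and 1891 to 1976 in non-adipogenic lines. With only Egfl7 above background in all lines, these sums include background signal, and no class difference is read from them.

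Thbd, the thrombin-binding anticoagulant receptor, was clearly present in all 4 preadipose lines and at or near background in the 3 non-adipogenic lines. Its single probe set (1448529_at) read 828, 625 and 557 on the arrays of Swiss 2. It read 1545, 1253 and 1049 in Swiss 8, and 2447, 2020.0 and 2531 in Swiss 9. Both arrays of Swiss 19 were higher still, at 3001 and 2664. In the non-adipogenic lines the values were 140.2, 80.0 and 5.58 in Swiss 3, then 127, 96.8 and 36.2 in Swiss 5, and 107, 94.0 and 113 in Swiss 22. No non-adipogenic array reached the lowest preadipose array. In RNA of whole cultures, fewer cells with a transcript and less of it per cell cannot be told apart.

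**Figure D1:**
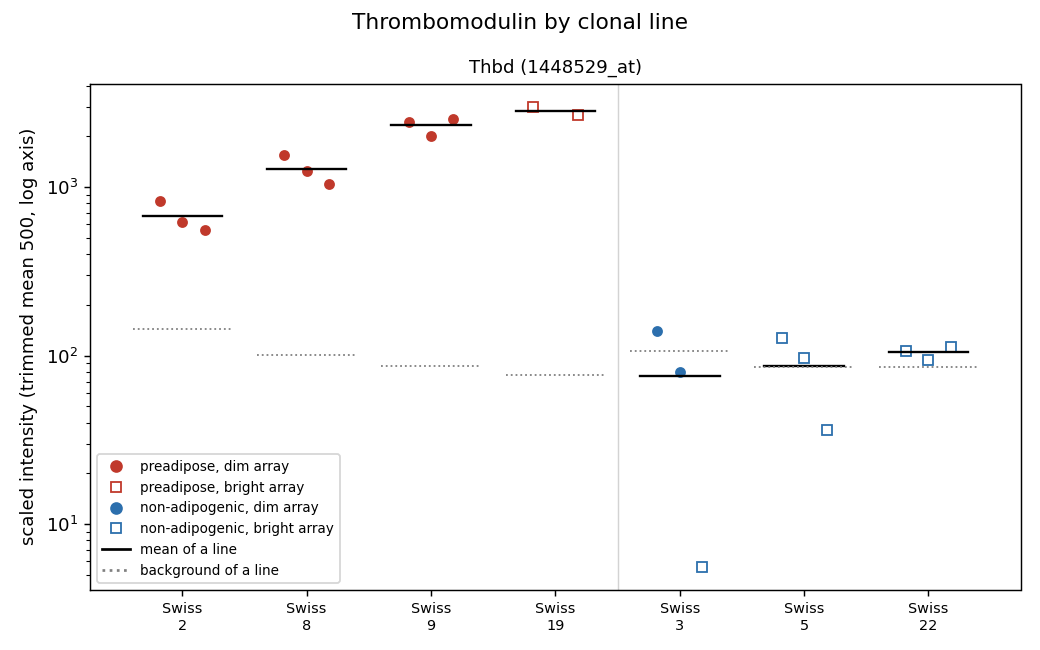
Scaled intensity of Thbd (log axis) on each array of the 7 lines, with filled circles for dim and open squares for bright arrays, a black bar for the mean of a line and a dotted bar for its background. The preadipose line means climb from 669.9 in Swiss 2 to 2833 in Swiss 19, and the non-adipogenic means, 75.3 to 105, lie about their backgrounds.

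The class mean of Thbd was 1779 ± 982 (SD, n = 4 lines) in preadipose and 88.8 ± 14.8 (SD, n = 3 lines) in non-adipogenic lines. The level was at least 17.97-fold higher in preadipose lines, with each non-adipogenic line taken at the higher of its own value and its background. Swiss 5 and Swiss 22 were above background on the line mean, by 86.6 against 85.8 and 105 against 85.7, and Swiss 3 was below it. The log2 difference was 1.85 ± 0.32 (SE). It was 1.63 within the dim arrays and 2.55 within the bright arrays, so the direction was the same on both sides of the brightness split. Each side rests on 1 line for 1 class. Swiss 3, with 2 arrays, was the only non-adipogenic line among the dim arrays. Swiss 19, with 2 arrays, was the only preadipose line among the bright ones. Over 36 alternatives the log2 difference ran from 1.32 to 3.82. The lowest value came with the pseudocount of 64 and the highest with scaling before the pseudocount.

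The preadipose lines also differed from each other in Thbd. The order of line means was Swiss 19, Swiss 9, Swiss 8 and Swiss 2, and no neighbours in that order shared array values. Swiss 19 stood 4.23-fold above Swiss 2 (limma F test among 4 preadipose lines, adjusted p = 6.44e-07), and the call held in 20 of 20 fits that left out 1 array. Among Swiss 2, Swiss 8 and Swiss 9, whose arrays were all dim, Swiss 9 stood 3.48-fold above Swiss 2 (limma F test among these lines, adjusted p = 6.66e-06). With scaling before the pseudocount this last comparison missed the threshold, at adjusted p = 0.0523. The mean intensity of the arrays followed the same order, at 28.4, 40.3, 46.7 and 149 from Swiss 2 through Swiss 8 and Swiss 9 to Swiss 19, and its part in the order of Thbd was not tested.

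In the non-adipogenic lines, no neighbours in the order of Thbd differed beyond their array spread. The F test among the 3 lines gave an adjusted p of 0.699, and the difference of Swiss 5 from Swiss 22 was -0.09 ± 0.11 (SE) on the log2 scale (adjusted p = 0.959). Without normalization between arrays the F test gave 0.0181. Of the sum of squares of Thbd over the 20 arrays, 80.8% lay between the 2 classes, 17.8% among lines within a class and 1.38% among arrays within a line.

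F2r, the thrombin-cleaved receptor that signals through G proteins, ran the other way between the classes. It was bright in every line and brightest in the non-adipogenic lines. Probe set 1437308_s_at read 1628, 1523 and 1357 in Swiss 2, 4227, 3698 and 3328 in Swiss 8, and 2651, 3149.8 and 2796 in Swiss 9. Swiss 19 read 6663 and 6723. The non-adipogenic arrays read 9693, 10108 and 10206 in Swiss 3, 14607, 14499 and 14167 in Swiss 5, and 10793, 9512 and 10548 in Swiss 22. Every preadipose array lay below every non-adipogenic array.

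**Figure D2:**
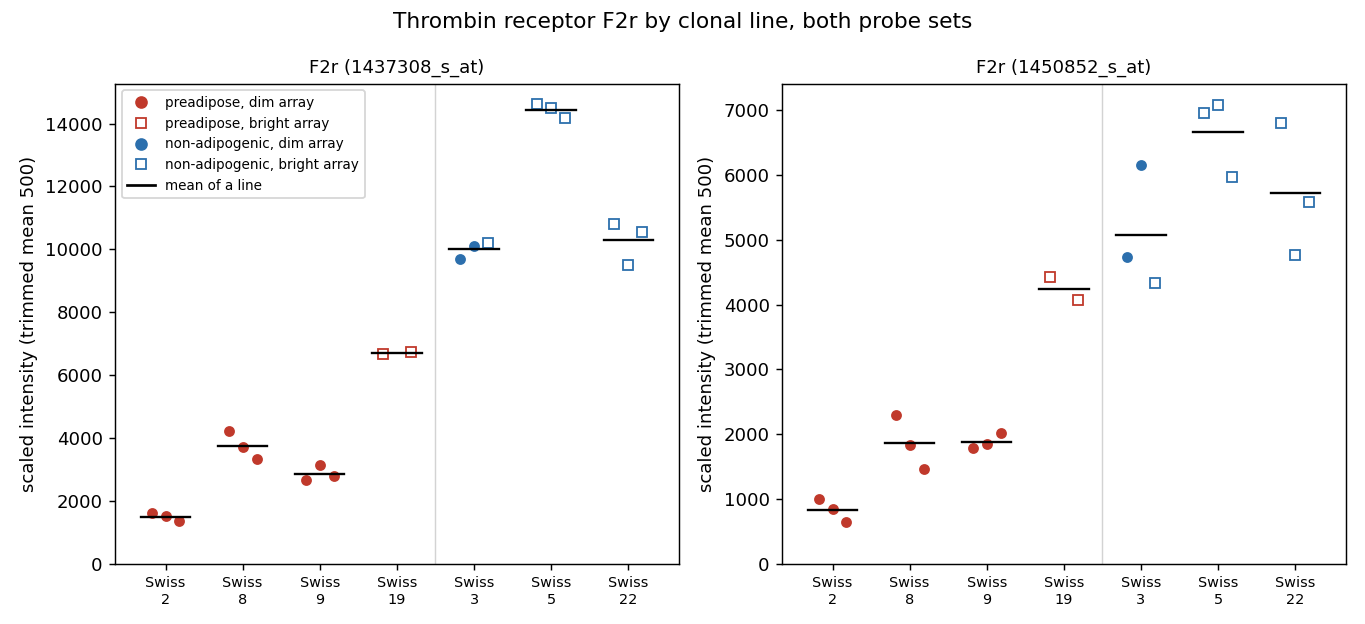
Scaled intensity of the 2 F2r probe sets on each array by line, with circles for dim arrays, squares for bright arrays and a bar for the mean of a line. In both panels Swiss 2 is lowest (1503 and 829.7) and Swiss 5 highest (14424 and 6669.5), and Swiss 19 lies between the other preadipose lines and the non-adipogenic lines.

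That probe set averaged 3703 ± 2197 (SD, n = 4 lines) against 11570.4 ± 2476 (SD, n = 3 lines), which is 3.12-fold lower in preadipose lines, with a log2 difference of -1.62 ± 0.38 (SE). The second probe set (1450852_s_at) averaged 829.7 ± 179 in Swiss 2, 1865 ± 415 in Swiss 8 and 1881 ± 118 in Swiss 9, and Swiss 19 averaged 4245 ± 252 (SD over arrays). Its non-adipogenic means were 5077 ± 953 in Swiss 3, 6669.5 ± 613 in Swiss 5 and 5718 ± 1025 in Swiss 22. That was 2.64-fold lower in preadipose lines (log2 difference -1.33 ± 0.36 SE). Here the arrays of the classes touched, since the highest Swiss 19 array read 4423 and the lowest Swiss 3 array 4339. The 2 probe sets had a correlation of 0.989 over the 7 line means, which share the same arrays. Probe sets whose names end in _s_at can match more than 1 transcript.

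The size of the F2r difference varied with the arrays used. Within the dim arrays, where Swiss 3 is the only non-adipogenic line, it was -1.80 and -1.62 for the 2 probe sets. Within the bright arrays, where Swiss 19 is the only preadipose line, it was -0.69 and -0.30. The direction was the same in 36 of 36 alternatives for each. In Swiss 3, the line with arrays on both sides of the split, the bright array read 10206 on the first probe set and the dim arrays 9693 and 10108. On the second probe set the bright array read 4339, below the dim arrays at 4738 and 6152.

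Within the preadipose class F2r differed by 4.45-fold on the first and 5.12-fold on the second probe set, Swiss 19 over Swiss 2 (limma F test, adjusted p = 2.66e-09 and 4.78e-06). Among the all-dim lines Swiss 2, Swiss 8 and Swiss 9 the tests gave adjusted p = 1.08e-06 and 0.00137, with Swiss 2 lowest on both. Swiss 8 lay above Swiss 9 without overlap on the first probe set, while on the second the lines overlapped. In the non-adipogenic class the first probe set differed, with Swiss 5 highest (adjusted p = 0.000528), and the second did not pass (0.406), although it passed with arrays centred on their medians (8.3e-07) and without normalization (1.04e-06). Swiss 5 exceeded Swiss 22 by 0.48 ± 0.079 (SE) on the log2 scale on the first probe set (limma adjusted p = 0.00599). That call was absent with scaling before the pseudocount (0.267), with arrays centred on their medians (0.900) and without normalization (0.728).

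Set side by side, Thbd and F2r had opposite class directions and the same extremes inside the preadipose class. Both were lowest in Swiss 2 and highest in Swiss 19. Swiss 19 was thus the preadipose line with the highest thrombomodulin and also the one whose F2r level came nearest to the non-adipogenic lines. These extremes were not particular to Thbd and F2r, since Tfpi probe sets 1438530_at, 1451790_a_at and 1451791_at had them too. Swiss 2 and Swiss 19 also had the lowest and highest mean array intensity of the preadipose lines, 28.4 and 149, whose part was not tested. Over all 7 line means the correlation of Thbd with the F2r probe sets was -0.58 and -0.50, on values that come from the same arrays.

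Tissue factor, F3, was above background in all lines and varied by line, with overlapping class ranges. Its probe set (1417408_at) read 2418 and 2179.9 in Swiss 19, the highest line. Swiss 2 read 1811, 1003 and 1008, so 1 of its arrays stood well apart. Swiss 8 read 727, 655 and 769, and Swiss 9 read 725, 659 and 974. Among non-adipogenic lines, the arrays read 1169, 1292 and 1141 in Swiss 3, 1062, 583 and 709 in Swiss 5, and 783, 1012 and 909 in Swiss 22. The arrays of Swiss 19 lay above those of every other line.

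F3 averaged 1269 ± 729.96 (SD, n = 4 lines) in preadipose against 962 ± 215 (SD, n = 3 lines), with a log2 difference of 0.21 ± 0.27 (SE). The sign turned within the dim arrays, at -0.31, and was 0.94 within the bright arrays. Among preadipose lines, Swiss 19 was 3.21-fold above Swiss 8 (limma F test, adjusted p = 0.000151), a call that held in 20 of 20 fits with 1 array left out. Among Swiss 2, Swiss 8 and Swiss 9 the adjusted p was 0.0336. That call was lost, with adjusted p up to 0.177, in 5 of 20 fits, those without replicate 1 of Swiss 2 or replicates 1 or 2 of Swiss 8 or Swiss 9. It was also lost with scaling before the pseudocount (0.130), with arrays centred on their medians (0.99995) and without normalization. The non-adipogenic lines did not pass (0.128), but did with median centring (0.0148), without normalization (0.00193) and in 2 of 20 fits with 1 array left out (lowest 0.0359). Swiss 5 against Swiss 22 did not pass either (0.960), and did under those same 2 scalings (0.0455 and 0.0206).

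Tfpi, the inhibitor of the tissue factor and factor VII complex, was measured by 4 probe sets with the same lines at the top. On all 4, Swiss 19 was highest among preadipose lines, Swiss 3 highest and Swiss 5 lowest among non-adipogenic lines. Probe set 1451791_at read 1368, 1561 and 1336 in Swiss 2, 1696, 1528 and 1620.0 in Swiss 8, 1953, 1906 and 2549 in Swiss 9, and 3026 and 3833 in Swiss 19. It read 2972, 4083 and 3267 in Swiss 3, 1979, 1962 and 2155 in Swiss 5, and 2607, 2439 and 2572 in Swiss 22. Swiss 19 and Swiss 3 overlapped each other and lay above the other 5 lines.

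**Figure D3:**
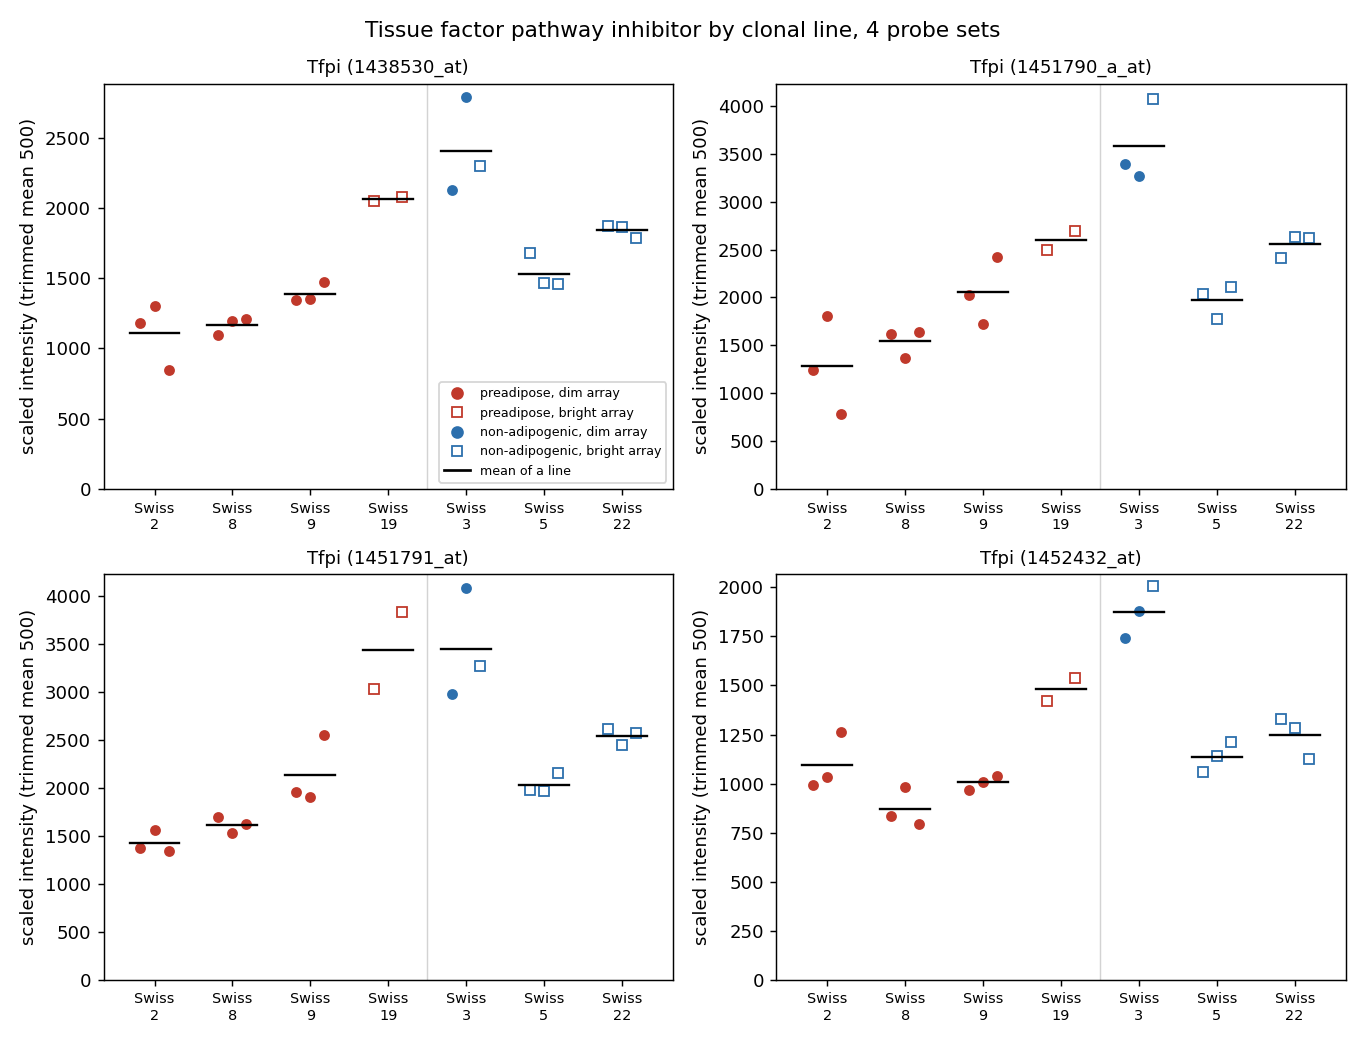
Scaled intensity of the 4 Tfpi probe sets on each array by line, with circles for dim arrays, squares for bright arrays and a bar for the mean of a line. Swiss 3 has the highest mean in each panel and Swiss 19 the next, for example 1876 and 1481 on 1452432_at.

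The line means of 1438530_at ran from 1111 ± 235 in Swiss 2 to 2060.2 ± 19.0 in Swiss 19 among preadipose lines, and from 1533 ± 125 in Swiss 5 to 2403 ± 343 (SD over arrays) in Swiss 3. Those of 1451790_a_at ran from 1279.9 ± 515 to 2597 ± 138 and from 1975 ± 175 to 3579 ± 428 in the same lines. On 1452432_at the lowest preadipose line was Swiss 8, at 872 ± 99.3. Correlations among the 4 probe sets were 0.851 to 0.973 over the 7 line means.

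Differences among preadipose lines passed on all 4 Tfpi probe sets, with limma F test adjusted p of 0.00138 (1438530_at), 0.0116 (1451790_a_at), 6.56e-05 (1451791_at) and 0.00220 (1452432_at). The call of 1451790_a_at was lost without replicate 2 of Swiss 19 (adjusted p = 0.0626). Among Swiss 2, Swiss 8 and Swiss 9 none of the 4 passed, with adjusted p from 0.0530 to 0.382, although 1451791_at passed at 0.0388 with 1 probe set per gene, 0.0466 with the filter on dim probe sets and 0.0307 with a mean-variance trend. All but 1452432_at passed with median centring (0.0208, 0.0108 and 0.00231) and without normalization (0.0489, 0.0330 and 0.00902). Differences among non-adipogenic lines passed on all 4, with adjusted p of 0.00122, 0.00508, 0.000682 and 7.34e-05. With scaling before the pseudocount the first 2 of these missed, at 0.0542 and 0.0839. Swiss 5 and Swiss 22 did not differ past the threshold on any of them in the limma fit (adjusted p 0.511 to 0.910), but all 4 passed with arrays centred on their medians (0.00365 to 0.0193). Between classes all 4 were lower in preadipose lines, with log2 differences of -0.32, -0.43, -0.28 and -0.23, and overlapping line means. They were -0.70, -0.85, -0.70 and -0.58 with arrays centred on their medians, and -0.83, -0.98, -0.83 and -0.71 without normalization. Within the bright arrays the sign turned on all but 1451790_a_at.

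Pros1, which encodes the cofactor protein S, had nearly equal class means and large differences among lines. Its probe set (1426246_at) read 1513, 1729.8 and 1586 in Swiss 2, 1106, 1237 and 1292 in Swiss 8, 981, 1055 and 1187 in Swiss 9, and 1984 and 1748 in Swiss 19. It read 1722, 1712 and 1843 in Swiss 3, 848, 873 and 1022 in Swiss 5, and 1345, 1543 and 1636 in Swiss 22. Each class held lines at both ends of the range.

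**Figure D4:**
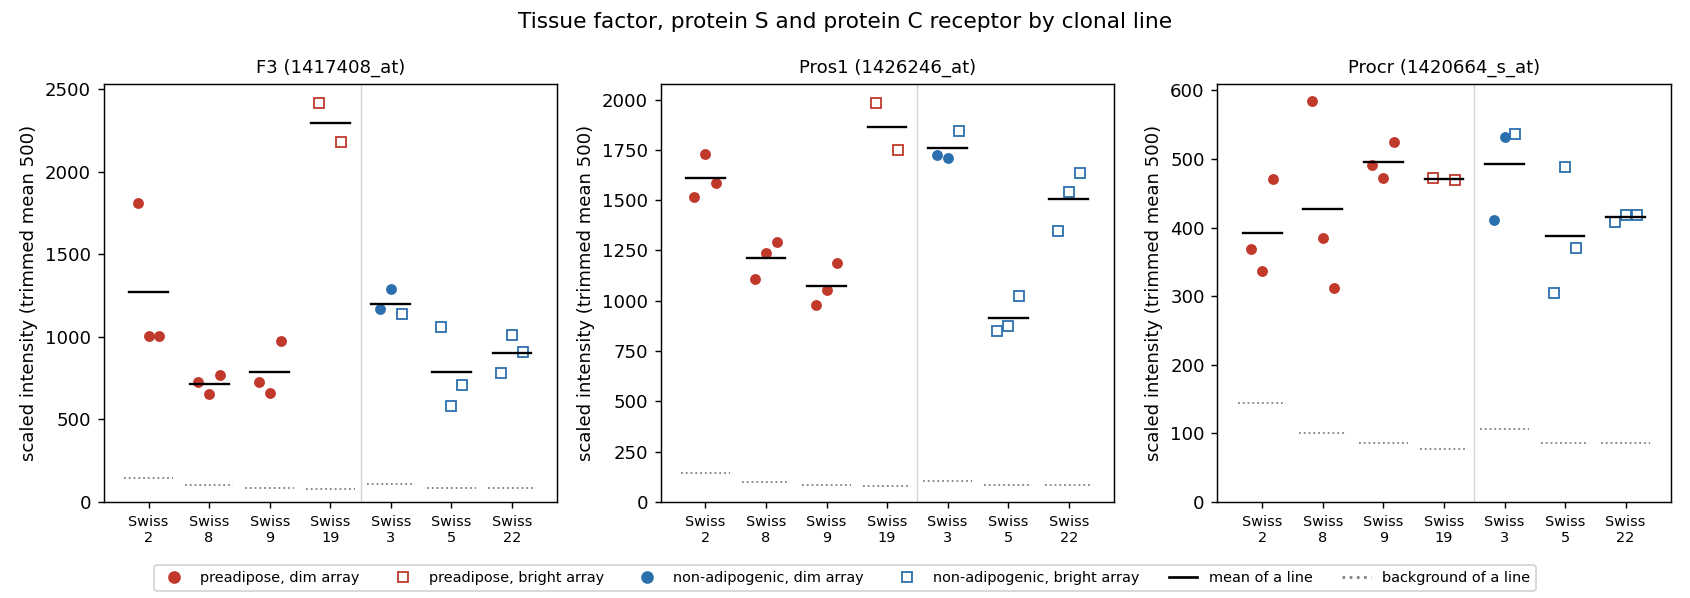
Scaled intensity of F3, Pros1 and Procr on each array by line, with circles for dim arrays, squares for bright arrays, a bar for the mean of a line and a dotted bar for background. Swiss 19 stands highest for F3 (2299), Swiss 19 and Swiss 3 for Pros1 (1866 and 1759), and the lines overlap for Procr (388 to 496).

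Pros1 averaged 1440.4 ± 363 (SD, n = 4 lines) in preadipose against 1394 ± 434 (SD, n = 3 lines), a log2 difference of 0.05 ± 0.19 (SE). Among preadipose lines Swiss 19 was 1.74-fold above Swiss 9 (limma F test, adjusted p = 0.000210), and among non-adipogenic lines Swiss 3 was 1.92-fold above Swiss 5 (adjusted p = 1.98e-05). Swiss 2 exceeded Swiss 9 by 1.5-fold among the all-dim lines (limma F test among these lines, adjusted p = 0.00191). That call was lost when arrays were centred on their medians (adjusted p = 0.99995) and without normalization. Swiss 5 was below Swiss 22 by a log2 difference of -0.47 ± 0.077 (SE, adjusted p = 0.00549), which missed with scaling before the pseudocount (0.0727). Between lines of a class lay 92.7% of the sum of squares of Pros1 and between classes 0.250%.

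Procr, the receptor that presents protein C to the thrombin and thrombomodulin complex, was above background in all lines, with no difference past the threshold after quantile normalization. Its probe set (1420664_s_at) read 368, 337 and 471 in Swiss 2, 585, 384 and 312 in Swiss 8, 492, 473 and 524 in Swiss 9, and 472 and 469 in Swiss 19. Arrays of Swiss 3 read 411, 532 and 537, those of Swiss 5 read 305, 489 and 370.2, and those of Swiss 22 read 408, 419 and 419. The arrays of every line overlapped those of its neighbours in rank.

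Procr averaged 446 ± 46.2 (SD, n = 4 lines) in preadipose against 432 ± 54.7 (SD, n = 3 lines), a log2 difference of 0.02 ± 0.062 (SE). The class difference was -0.15 with arrays centred on their medians and -0.28 without normalization. The limma F tests gave adjusted p = 0.520 among the preadipose and 0.852 among the non-adipogenic lines. With median centring these were 3.33e-05 and 0.00519, and Swiss 5 against Swiss 22 gave 0.0483. Without normalization the 3 values were 4.06e-07, 0.000151 and 0.0132. Among Swiss 2, Swiss 8 and Swiss 9 neither scaling gave a call (0.165 and 0.172). The array-to-array spread was 70.7% of its sum of squares, the largest share of the 10 probe sets.

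**Figure D5:**
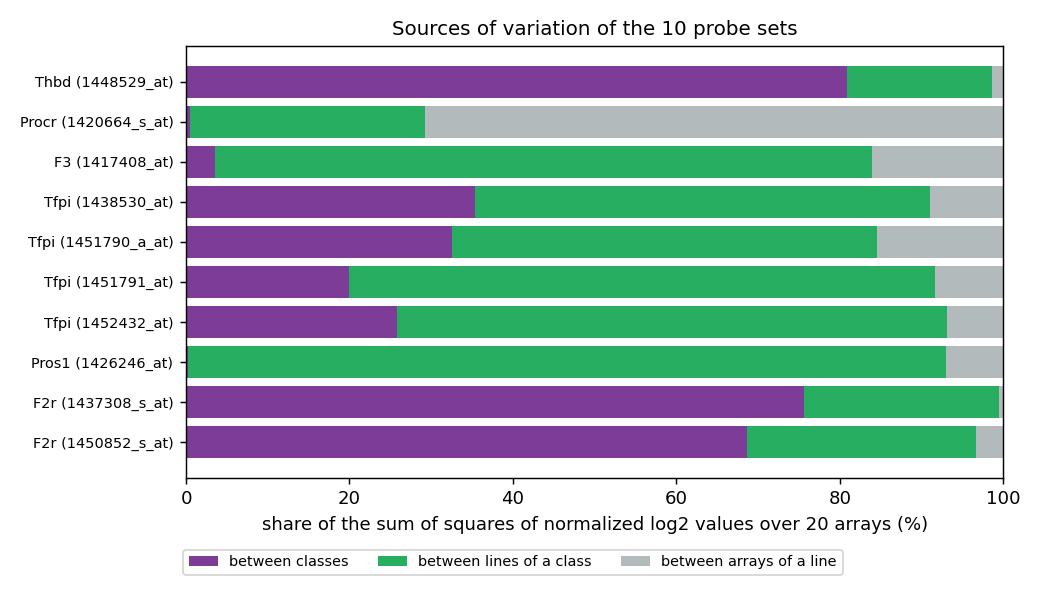
Share of the sum of squares of normalized log2 values over 20 arrays that lay between the 2 classes, among lines within a class and among arrays within a line, for each of the 10 probe sets. The class share is 80.8% for Thbd and 75.6% and 68.6% for F2r, and the share between lines of a class is 80.4% for F3 and 92.7% for Pros1.

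Counted together, 9 of the 10 probe sets, all but that of Procr, differed among the 4 preadipose lines, where 15.3% of all probe sets tested did. Of the 10, 6 differed among the 3 non-adipogenic lines, the 4 of Tfpi, that of Pros1 and 1 of F2r, against 11.1% of all. Among Swiss 2, Swiss 8 and Swiss 9, 5 differed, those of Thbd, F3, Pros1 and both of F2r, against 10.4% of all. Between Swiss 5 and Swiss 22, 2 differed, Pros1 and 1 of F2r, against 0.799% of all. These shares include probe sets near background, so they are not of a like set. Among the 30194 probe sets above background in at least 2 lines, the shares were 22.5%, 16.7%, 15.2% and 1.05% in the same order. The probe sets of a gene are not independent of each other. Swiss 19 had the highest mean of the preadipose lines on 9 of the 10 probe sets and was the only preadipose line on bright arrays, so its distance from the other preadipose lines and array brightness cannot be told apart.

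For the class contrast, which chose the genes, none of the 10 probe sets passed limma's adjusted threshold, where 0.819% of all probe sets did, 0.275% higher and 0.544% lower in preadipose lines. With 1 probe set per gene, 1 of 6 genes, Thbd, passed, where 1.53% of 18193 genes did. Thbd is the gene whose class difference selected the group, so its passing is no test of that difference. The ranges of line means of the classes were apart for Thbd, higher in preadipose lines, as for 5.41% of all probe sets, and for both F2r probe sets, lower in preadipose lines, as for 6.14%. Nothing is read from these calls and shares, since the contrast was used to choose the group. With arrays centred on their medians only 3 of all probe sets passed, 0 of them higher in preadipose lines, against 369 with 124 higher under quantile normalization.

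The rest of the coagulation and protein C pathway was taken from 9 gene lists with 97 entries, of which 90 had a probe set of their own. The other 7 are not reported here. In the limma fit of 7 line means, 0 of the 90 were higher and 2 were lower in preadipose lines, which is 2.22%. In that fit 0.819% of all probe sets passed, and with 1 probe set per gene 1.53% of 18193 genes did. Nothing about the pathway as a whole is read from so few calls. At an unadjusted p under 0.05, 11 were higher and 11 lower, where 12.6% of all probe sets passed in either direction. Hs3st1 makes the heparan sulfate 3-O-sulfate that antithrombin binds. It was above background in all non-adipogenic lines, at 385 ± 107 (SD, n = 3 lines), and in 1 preadipose line, with a class mean of 74.1 ± 29.1 (SD, n = 4 lines). That is at least 3.53-fold lower in preadipose lines (log2 difference -0.66 ± 0.088 SE, limma adjusted p = 0.0261). Over 19 alternatives other than single arrays, its adjusted p ran from 0.00719 to 0.939 and passed in 10, missing without Swiss 2, Swiss 8, Swiss 3, Swiss 5 or Swiss 22, with median centring (0.496), without normalization (0.939), and within the dim (0.0993) or the bright arrays (0.477). Plgrkt, a membrane receptor for plasminogen, was at 1272 ± 93.6 (SD, n = 4 lines) against 2102 ± 277 (SD, n = 3 lines), a log2 difference of -0.53 ± 0.088 (SE, limma adjusted p = 0.0496). It passed in 4 of 19 alternatives (adjusted p 0.0267 to 0.939) and in 9 of 20 fits with 1 array left out.

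Among the coagulation factors themselves, 0 of 14 passed and 7 were above background in no line. The liver is the known source of most of them, and none of the 14 was above background in all 7 lines. The 8 anticoagulant proteins and serpins and the 7 genes of the vitamin K cycle and factor transport held 0 called genes. The 3 receptors of protein S and Gas6 and the 17 measured genes of the protease-activated receptor family and its signal transducers held 0 too. So did the 13 measured regulators of thrombomodulin transcription and the 3 lectin-like relatives of thrombomodulin. Before adjustment, 13 of the 65 genes of these lists and the coagulation factors were under 0.05, beside 12.6% of all probe sets. A list gene is its probe set with the highest mean, so that share is not of a like set. List medians of the log2 class difference ran from -0.08 to 0.10, beside 0.0055 over all probe sets. Klf2 and Klf4, transcription factors known to raise Thbd in endothelium, had log2 differences of -0.10 ± 0.12 and -0.37 ± 0.20 (SE), neither past the threshold (limma adjusted p = 0.840 and 0.520). Both were named for that role after their values were seen. Klf4 also differed among preadipose lines and among non-adipogenic lines (limma F test, adjusted p = 1.73e-05 and 0.00582).

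The heparan sulfate list also held genes close to the threshold in the other direction. When probe sets above background in fewer than 2 lines were left out, which raised the share of all probe sets called to 2.19%, Sdc1, Sdc4, Gpc1 and Ext1 passed as higher in preadipose lines, with limma adjusted p of 0.0330, 0.0349, 0.0468 and 0.0475. In the fit of all probe sets their values were 0.0669, 0.0649, 0.115 and 0.0957. Syndecan-1, syndecan-4 and glypican-1 are core proteins that carry heparan sulfate, and Ext1 polymerizes its chain. Gpc1 was at 947.5 ± 387 (SD, n = 4 lines) against 235 ± 51.3 (SD, n = 3 lines). Other core proteins of the list were lower in preadipose lines. Gpc4 and Gpc6 had log2 differences of -0.80 ± 0.30 and -0.61 ± 0.24 (SE), neither past the threshold (limma adjusted p = 0.331 and 0.349). The median log2 class difference of the list was -0.07, so no common direction of its genes is read from the named ones.

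The genes whose line means followed those of Thbd most closely are given as a description, from 916 genes with a range of at least 1 log2 unit over the lines. They were Gprin3 (Pearson correlation over 7 line means 0.988), Il6 (0.970), Celf1 (0.969), Cobll1 (0.967) and Grb14 (0.946). Gprin3 stayed under background in the non-adipogenic lines, at 24.3 to 54.0, and had levels of 323 and 356 in Swiss 2 and Swiss 8, and of 708 and 1028 in Swiss 9 and Swiss 19. Il6, the cytokine interleukin-6, was at 718, 897, 1305 and 1864 in those lines and at 511, 460 and 499 in Swiss 3, Swiss 5 and Swiss 22. All line means come from the same 20 arrays. For Thbd, Gprin3, Il6 and Cobll1 the order of the preadipose lines was also that of mean array intensity, whose part was not tested. Celf1 and Grb14 were slightly higher in Swiss 9 (5937 and 4881) than in Swiss 19 (5826 and 4781).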

How the data were processed

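RNA of 20 samples of 7 lines was hybridized to 1 array each, per the labels. The deposited values are linear intensity per probe set. How probes were summarized and scaled is not given in the sources used here. From them log2(intensity + 32) was taken and quantile-normalized over 45037 probe sets that were not controls. A platform annotation named 34945 of these with 1 gene symbol, 932 with several and 9160 with none. Scaled intensity set each array to a trimmed mean of 500 (2% cut at each end). limma 3.58.1 in R 4.3.3 was fitted with 1 term per line on all arrays, or with class on 7 line means, with Benjamini-Hochberg adjustment over all probe sets and a threshold of 0.05. A gene of a list was its probe set with the highest mean.

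Named were every probe set of the genes, up to 3 called genes per list and the 5 genes most like Thbd. Genes named outside this rule (endothelial markers, Klf2, Klf4, Sdc1, Sdc4, Gpc1, Gpc4, Gpc6, Ext1) were chosen after their values were seen. The genes and lists were chosen with earlier results of these data known. Fits were tested on simulated data. Replicate numbers were checked for pairing: over 57 pairs of the same number, correlations of deviations ran from -0.026 to 0.034, so numbers do not pair arrays. No 2 arrays of a line held identical values. Promoter sequences are from RefSeq, GRCm38.p6. Alternatives covered the pseudocount (16, 64), centring, no normalization, scaling first, a filter on dim probe sets, a mean-variance trend, 1 probe set per gene, brightness and arrays or lines left out. Array number limits the precision.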

Additional observations from a re-analysis of the deposited data

How the results depend on the processing

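The counts of probe sets called among lines held under the pseudocounts of 16 and 64, the filter on dim probe sets, the mean-variance trend and the replicate block, at 9 among preadipose, 6 among non-adipogenic, 5 or 6 among Swiss 2, Swiss 8 and Swiss 9, and 2 between Swiss 5 and Swiss 22. With arrays centred on their medians the 4 counts were 10, 9, 6 and 7, where 63.8%, 53.6%, 11.4% and 20.5% of all probe sets passed. Without normalization they were 10, 10, 6 and 7, against 62%, 50.9%, 9.24% and 28%, with the median class difference of all probe sets shifted to -0.12. With scaling before the pseudocount they were 9, 4, 3 and 0, against 9.06%, 6.86%, 5.4% and 0.0533%. With 1 probe set per gene, 5 of 6 genes passed among preadipose and 3 among non-adipogenic lines, where 23.2% and 16.4% of 18193 genes did. In that fit Tfpi and F2r count once each. With 1 array left out, counts ran from 8 to 9, 6 to 7, 4 to 7 and 2 to 2 in these 4 comparisons. For list genes, lower calls were 1 with the pseudocount of 64, scaling first, the replicate block or the trend, and 0 with median centring, without normalization and within the dim or the bright arrays. Higher calls were 4 with the filter and 1 with the trend. With 1 array or line left out, lower calls ran from 0 to 2 and higher calls from 0 to 3. The replicate numbers do not pair the arrays, and the block changed no call of the 10 probe sets. Other causes of these shifts were not tested. Class differences of Procr, F3, Pros1 and 3 Tfpi probe sets changed sign in some of 36 alternatives, and those of Thbd, F2r and 1451790_a_at in none. Levels near background limit Thbd in non-adipogenic lines.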
